A study of Mus musculus with 48 samples.

Results

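The genes described here are 10 genes of the NRF2 antioxidant programme, measured in whole livers of mice with altered liver X receptor-α (LXRα, encoded by Nr1h3): Cbr3, Nqo1, Srxn1, Gclc, Gclm, Txnrd1, Hmox1, Slc7a11, Gpx2 and Nfe2l2. They were found by the Ensembl identifier of each mouse symbol among the 55416 gene identifiers in the count files, and all 10 passed the filter on low counts, which asks for about 10 reads in at least 7 livers. Gpx2 and Slc7a11 passed it through the homozygous livers, where they were high, since only 1 and 2 of the other livers reached that level. NRF2, the product of Nfe2l2, is a transcription factor that the adaptor KEAP1 normally hands to a ubiquitin ligase for degradation. When oxidants or electrophiles modify KEAP1, NRF2 accumulates, pairs with a small MAF protein and binds antioxidant response elements near genes for glutathione synthesis, thioredoxin recycling and quinone reduction. In the liver this programme is known for its part in handling drugs, electrophiles and the oxidants of fat and cholesterol overload.

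The study held 48 livers of male mice, 8 in each of 6 groups. In the first experiment the mice carried LXRα W441R, a dominant negative substitution in the C-terminal activation helix of the receptor, placed in the gene by genome editing, on 0, 1 or 2 alleles (DN:WT, DN:HET and DN:HOM). In the second they carried 0, 1 or 2 LXRα null alleles (KO:WT, KO:HET and KO:HOM). The strain of all 48 was labelled C57Bl/6J, and the groups of each experiment came from crosses of heterozygotes, so that DN:WT and KO:WT are littermate controls. All groups, the controls included, ate a western diet with 0.2% cholesterol for 8 weeks, from 8 to 16 weeks of age. Both alleles are germline, so every cell type carries them. The knockout line began on a mixed Sv129/C57Bl/6 background before backcrossing and was kept at another site than the knock-in, so site and experiment cannot be told apart.

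The reads counted on genes ranged from 13876351 to 16961379 per liver apart from 2 shallower livers, KO:HET animal 3 and KO:HOM animal 17, at 5332897 and 5376226. A level of 3 reads, the limit used for a gene with no counts, was worth 0.136 to 0.604 CPM (a gene's counts per 1000000 counts of the scaled library) depending on the liver. In the knockout experiment the targeted gene Nr1h3 had medians of 90.2 CPM in KO:WT, 59.7 in KO:HET and 26.4 in KO:HOM, a log2 change of -1.80 in KO:HOM (adjusted p = 3.31e-27). In the knock-in, which leaves the transcript in place, the medians were 93.9, 93.2 and 72.2 CPM, and the log2 change in DN:HOM was -0.32 (adjusted p = 1.47e-05). The sum of 8 hepatocyte markers, from 30620 to 97353 CPM, was far above that of any other cell type listed in every liver. A pair of livers of the knock-in went against their labels in the members and in macrophage markers. The library labelled DN:WT animal 10 held 24.5 CPM of Cbr3, 8.81 of Slc7a11 and 2122 CPM summed over 9 macrophage markers, and the library labelled DN:HOM animal 12 held 1.19, 0.14 and 225. In each of these values the first lay within the range of the other DN:HOM livers and the second within that of the other DN:WT livers. An exchange of their labels was not tested, and the values over all 48 livers take the labels as given. The values below come from the other 46 livers, with 7 in DN:WT, 7 in DN:HOM and 8 in each other group, and for DN:HOM against DN:WT the value of each called gene over all 48 is also given.

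Homozygous W441R livers held more RNA of 8 of the 10 genes than their wild-type littermates. The change ran from an increase of 0.48 on the log2 scale in Gclc, the catalytic subunit of glutamate-cysteine ligase, to 5.45 in Cbr3, a carbonyl reductase, with fitted changes of 6.34 and 5.16 in the sparsely counted Slc7a11 and Gpx2, which are less exact. Gclm did not pass the test, and Nfe2l2, which encodes NRF2 itself, was lower. These 9 of 10 calls, at a Benjamini-Hochberg adjusted p under 0.05, stand against 59.1% of all 15711 genes tested in this comparison, and the 8 higher against 29.1%. The median log2 change of the 10 genes was 1.25, against -0.01 for all genes tested. In 5 of the 10 (Cbr3, Srxn1, Hmox1, Slc7a11 and Gpx2) the lowest DN:HOM liver lay above the highest DN:WT liver, which was so for 17.8% of all genes. Gpx2 was tested only because its DN:HOM livers were high, with 3 livers outside DN:HOM at the filter's level and 7 needed. Slc7a11 reached that level in 8 livers outside DN:HOM, 6 of them KO:HOM, where it was also high. Among the other 8 genes 7 were called, 6 higher and 1 lower, with a median of 0.89 and 3 separate from DN:WT. Over all 48 livers the number called was 9, against 48% of all genes, with a median log2 change of 0.94, and in none of the 10 genes were the groups separate, so the separation in 5 genes rests on leaving out the 2 libraries.

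**Figure D1:**
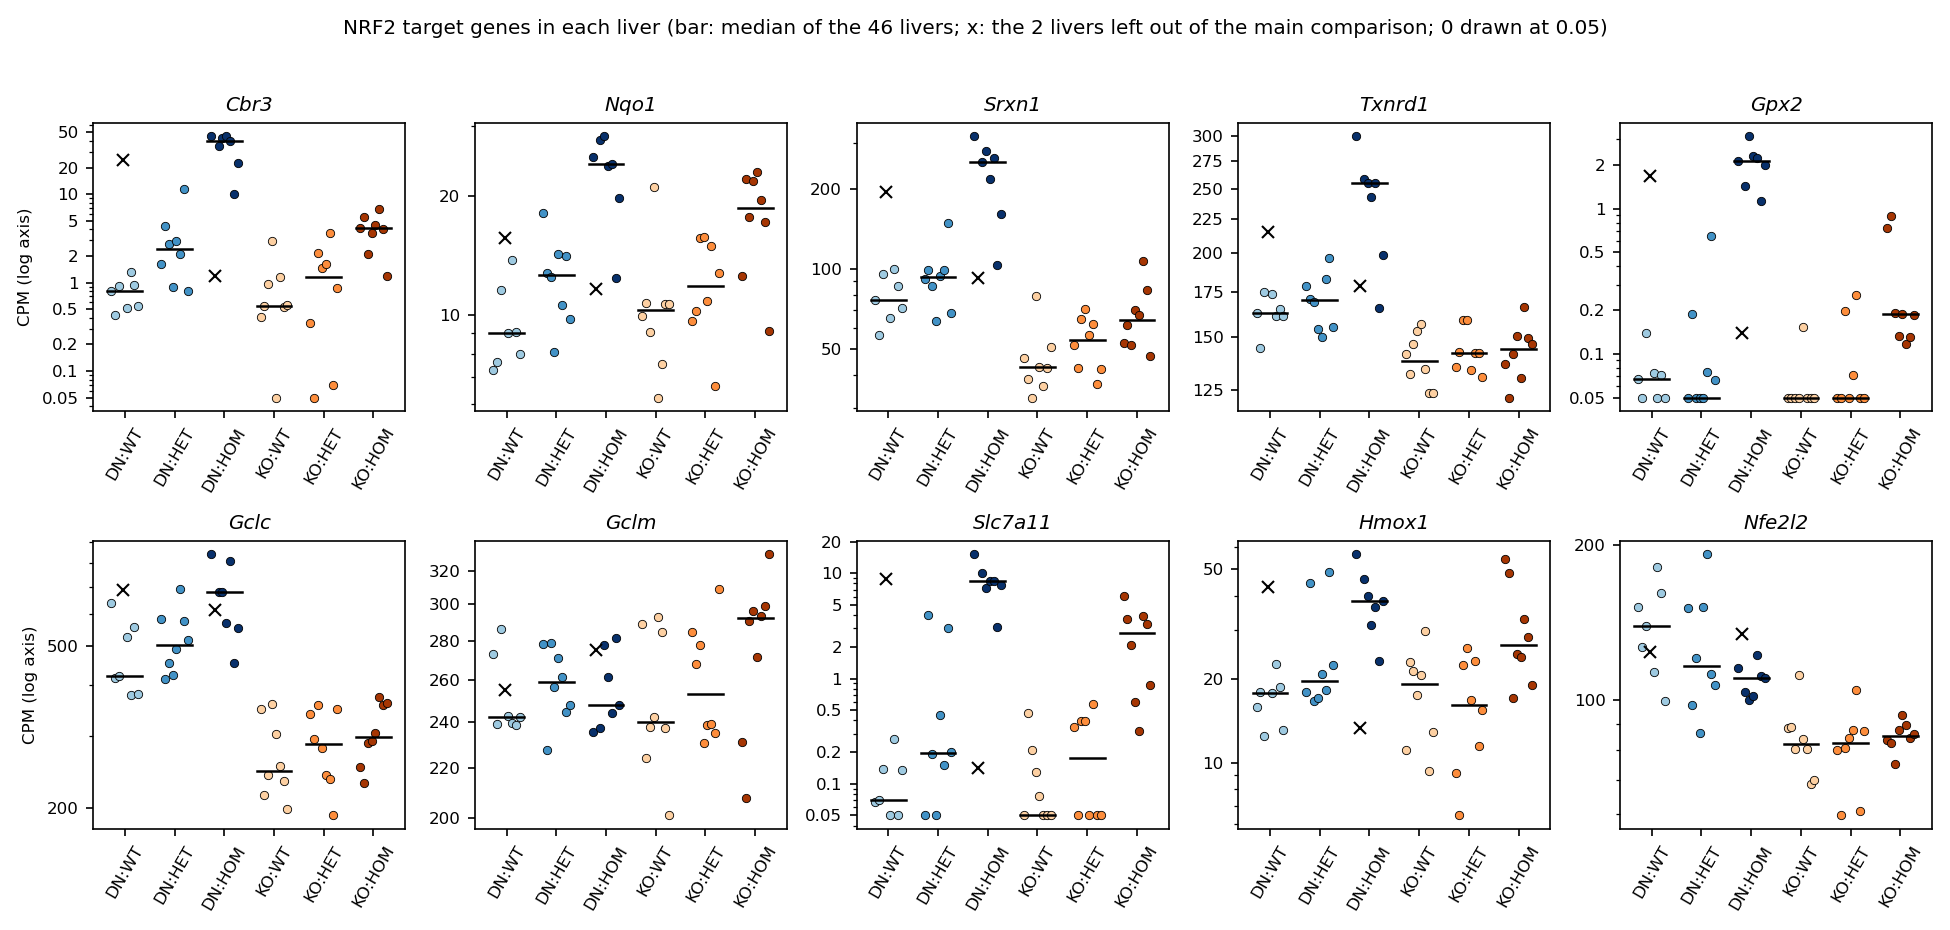
Each panel plots 1 gene in CPM on a log axis by group; each point is 1 liver, the bar is the median of the 46 livers, crosses are the 2 libraries left out, and values of 0 are drawn at 0.05. Cbr3, Slc7a11 and Gpx2 stand clear of DN:WT in DN:HOM (medians of 40.3, 8.39 and 2.12 CPM), while Gclm overlaps in all 6 groups.

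Cbr3 and Nqo1 reduce carbonyls and quinones, the latter in a single step that avoids a reactive semiquinone. Cbr3 (chr16:93479726-93487879, GRCm39, plus strand) ranged from 0.424 to 1.33 CPM in DN:WT, with a median of 0.809, from 0.798 to 11.5 in DN:HET (median 2.41) and from 9.96 to 45.2 in DN:HOM (median 40.3). The DN:HOM livers did not overlap either other group apart from 1 DN:HET liver, animal 22. The log2 change in DN:HOM was 5.45 (SE 0.57, adjusted p = 4.66e-11), and 2.96 over all 48 livers. In the knockout Cbr3 ranged from 0 to 2.93 CPM in KO:WT (median 0.547), from 0 to 3.68 in KO:HET (median 1.16) and from 1.17 to 6.78 in KO:HOM (median 4.09). Here the groups overlapped, and the log2 change in KO:HOM was 2.16 (SE 0.52, adjusted p = 0.00212), with an adjusted p of 0.0538 over all 48 livers. Cbr1, the neighbouring paralogue of Cbr3, rose by 1.40 in DN:HOM and stood at -0.13 in KO:HOM, where it was not called.

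Nqo1 (chr8:108113835-108129934, minus strand) ranged from 7.28 to 13.8 CPM in DN:WT (median 9.03), from 8.09 to 18.1 in DN:HET (median 12.6) and from 12.4 to 28.2 in DN:HOM (median 24.0). Only the lowest DN:HOM liver, animal 33, reached into the wild-type range. The log2 change was 1.29 (SE 0.21, adjusted p = 1.66e-06), and 1.07 over all 48 livers. In the knockout Nqo1 ranged from 6.21 to 20.97 CPM in KO:WT (median 10.3), from 6.65 to 15.7 in KO:HET (median 11.8) and from 9.14 to 22.9 in KO:HOM (median 18.6). The highest KO:WT liver, animal 23, lay inside the KO:HOM range, and the log2 change was 0.72 (SE 0.20, adjusted p = 0.00765).

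Srxn1, sulfiredoxin, returns over-oxidised peroxiredoxins to their working form, and Txnrd1, cytosolic thioredoxin reductase, recycles thioredoxin with NADPH. Srxn1 (chr2:151947436-151957687, plus strand) ranged from 56.3 to 99.8 CPM in DN:WT (median 76.6), from 64.1 to 149 in DN:HET (median 93.3) and from 104.2 to 317 in DN:HOM (median 254). Its wild-type and homozygous livers did not overlap, and the log2 change was 1.55 (SE 0.20, adjusted p = 1.57e-08). With all 48 livers the groups overlapped and it was 1.18. In the knockout the medians were 42.7 CPM in KO:WT (range 32.8 to 79.3), 54.1 in KO:HET (36.8 to 71.0) and 64.3 in KO:HOM (46.9 to 107). The log2 change there was 0.55 (SE 0.19, adjusted p = 0.0360). This call was lost without any one of KO:HOM animals 20, 26 and 27 or KO:WT animals 1, 5, 14, 31, 32 and 33, with an adjusted p of 0.0504 to 0.126, and over all 48 livers.

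Txnrd1 (chr10:82669785-82733546, plus strand) ranged from 144 to 175 CPM in DN:WT (median 163), from 150 to 197 in DN:HET (median 170) and from 166 to 299.8 in DN:HOM (median 255). All DN:HOM livers other than animal 33 lay above every DN:WT liver, and the log2 change was 0.56 (SE 0.08, adjusted p = 2.11e-07), with 0.45 over all 48 livers. In the knockout the 3 medians lay close together, at 138, 142 and 144 CPM, and the log2 change in KO:HOM was 0.04 (SE 0.08, adjusted p = 0.803).

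The antioxidant response element was searched as its core, TGACNNNGC, on both strands of the 250 bases before each RefSeq start (promoter table of GRCm38.p6, placed on GRCm39 by exact match). The table holds 8 of the 10 genes, all but Gclc and Hmox1. The core was found for 3 of the 8, Gclm, Txnrd1 and Nfe2l2, and for 11.5% of the 27025 genes in the table (10.2% of its 32851 promoters). The stricter TGACTCAGC was found for none of the 8 and for 0.43% of all genes. A match to TGANTCAGC, letters chosen after the sequences had been read and overlapping the stricter motif, was found before Srxn1 alone among the 8 and for 1.17% of all genes. The windows below show these matches in capitals, written along the gene's strand, because NRF2 with its small MAF partner is known to bind such letters. In Gclm and Txnrd1 the capitals are the core read on the opposite strand. The first base of the match lies 240 bases before the start of Nfe2l2, 45 before Srxn1, 134 before Gclm and 92 before the second of 3 Txnrd1 starts.
Nfe2l2 (chr2:75535214-75535257, minus strand): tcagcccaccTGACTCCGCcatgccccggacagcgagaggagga
Srxn1 (chr2:151947374-151947432, plus strand): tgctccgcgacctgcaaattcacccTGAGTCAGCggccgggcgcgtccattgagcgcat
Gclm (chr3:122039047-122039105, plus strand): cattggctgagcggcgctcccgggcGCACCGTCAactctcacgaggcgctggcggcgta
Txnrd1 (chr10:82694923-82694981, plus strand): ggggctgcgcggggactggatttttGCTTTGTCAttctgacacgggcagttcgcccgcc
The matches are a description of letters, and the genes that hold one moved in different ways in DN:HOM. Srxn1 and Txnrd1 rose, Nfe2l2 was lower and Gclm did not pass the test. Cbr3, Nqo1, Slc7a11 and Gpx2, which rose, hold none of these letters in the 250 bases searched.

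Gclc and Gclm encode the catalytic and modifier subunits of glutamate-cysteine ligase, the first step of glutathione synthesis. In DN:HOM Gclc passed the test and Gclm did not, and the difference between them was not tested. Gclc (chr9:77661797-77701770, plus strand) ranged from 379 to 636 CPM in DN:WT (median 421), from 415 to 690 in DN:HET (median 504) and from 453 to 841 in DN:HOM (median 678). The groups overlapped, and the log2 change was 0.48 (SE 0.15, adjusted p = 0.00633), or 0.38 over all 48 livers (adjusted p = 0.0310). Gclm (chr3:122039126-122065061, plus strand) had medians of 242, 259 and 248 CPM over the same 3 groups, with all livers between 228 and 286, and a log2 change of 0.03 (SE 0.08, adjusted p = 0.768). With scaling by library size alone, which moves the median of all genes in this comparison by 0.43, Gclm stood at 0.46 and was called. In the knockout neither subunit passed the test, though Gclm did under the same scaling by library size alone, at 0.25 (adjusted p = 0.0145). Gclc stood at 0.19 (adjusted p = 0.388) and Gclm at 0.14 (adjusted p = 0.236), with KO:WT and KO:HOM medians of 247 and 299 CPM for Gclc and 240 and 292 for Gclm. Gclm shares 492 exon bases with the pseudogene Gm6061 on the same strand, which was itself counted at a mean of 6.58 reads per liver. Reads that could belong to either gene were not counted, so this mean does not show how many Gclm lost.

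Slc7a11, the light chain of the cystine-glutamate exchanger that brings in cystine for glutathione, rested on few reads in the controls. Slc7a11 (chr3:49846975-50398070, minus strand) ranged from 0 to 0.267 CPM in DN:WT (median 0.0707), from 0 to 4.01 in DN:HET (median 0.196) and from 3.06 to 15.2 in DN:HOM (median 8.39). The 7 DN:HOM livers together held 1286 reads against 10 in the 7 DN:WT livers. Per count of the scaled library the ratio was 87.3. Its exact 95% interval of 47.3 to 183 covers counting error only. Over all 48 livers, with the 8.81 CPM of DN:WT animal 10 among the controls, the fitted change was far smaller, 5.97-fold (log2 change 2.58, adjusted p = 0.00972). In the knockout the medians were 0.0383 CPM in KO:WT, 0.174 in KO:HET and 2.70 in KO:HOM, with 315 reads in KO:HOM against 13 in KO:WT, a ratio of 23.9 (13.8 to 45.4). KO:WT animal 5 held 7 of those 13 reads, and without it the ratio was 45.2 (20.5 to 124). Both changes passed the test (adjusted p = 2.62e-08 and 0.000101), though their fitted sizes depend on the prior count at such levels. Slc7a11 passed the filter on low counts only through homozygous livers, those of both experiments, where it was high.

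Gpx2, a glutathione peroxidase best known from the gut epithelium, was scarcer still. Gpx2 (chr12:76839107-76842326, minus strand) was at or below 0.139 CPM in every DN:WT liver and at or below 0.153 in every KO:WT liver, levels near that of a few reads. It ranged from 1.13 to 3.15 CPM in DN:HOM (median 2.12) and from 0.117 to 0.890 in KO:HOM (median 0.187). The reads were 303 in DN:HOM against 5 in DN:WT, and 39 in KO:HOM against 2 in KO:WT. Per count of the scaled library the ratios were 41.2 (exact 95% interval 17.4 to 128) and 19.3 (4.98 to 165). Both KO:WT reads came from animal 31, without which the control has none and the fitted log2 change moves from 3.73 to 5.39, and 26 of the 39 KO:HOM reads came from animals 8 and 11. Both comparisons had an adjusted p under 0.05 (1.01e-08 and 0.00176). Gpx2 was tested at all only because it was high in DN:HOM, so passing there is no separate evidence of a rise. The knock-in change over all 48 livers, with 1.67 CPM in DN:WT animal 10, was 6.30-fold (log2 change 2.66, adjusted p = 0.00120).

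Hmox1, haem oxygenase 1, breaks down haem and is strongly made by macrophages that clear red cells as well as by stressed hepatocytes. Hmox1 (chr8:75820241-75827217, plus strand) ranged from 12.5 to 22.7 CPM in DN:WT (median 17.8), from 16.7 to 48.8 in DN:HET (median 19.6) and from 23.2 to 56.5 in DN:HOM (median 38.2). The wild-type and homozygous livers did not overlap, and the log2 change was 1.21 (SE 0.28, adjusted p = 0.000259). With all 48 they overlapped and it was 0.82 (adjusted p = 0.0197). In KO:HOM it ranged from 17.1 to 54.1 CPM (median 26.5) against 9.29 to 29.7 in KO:WT (median 19.1), a log2 change of 0.78 (SE 0.26, adjusted p = 0.0298). That call was lost without any one of KO:HOM animals 8 and 11 or KO:WT animals 1, 33 and 34 (adjusted p 0.0616 to 0.103), and over all 48 livers. Animals 8 and 11 held the highest Hmox1 of their group, 54.1 and 48.2 CPM, and the highest macrophage marker sums, 1656 and 1293 CPM (group median 708). They also held its highest sums for lymphocytes (20.1 and 18.4 CPM, next 8.83), stellate cells (263 and 245) and Kupffer cells (66.2 and 60.5), and their neutrophil sums were 28.3 and 21.2 CPM, the first the highest and the second next after animal 26. The part of these cells in the Hmox1 values was not tested.

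Nfe2l2 (chr2:75504739-75534985, minus strand) was lower in DN:HOM, against most of the other genes. It ranged from 99.6 to 181 CPM in DN:WT (median 139), from 86.2 to 192 in DN:HET (median 117) and from 100.003 to 122 in DN:HOM (median 111). The groups overlapped, and the call of a fall of 0.34 (log2 change -0.34, SE 0.13, adjusted p = 0.0232) was lost without DN:WT animal 17 (adjusted p = 0.0670). It was also lost under upper-quartile scaling (-0.25, adjusted p = 0.0928) and with each experiment fitted alone (-0.30, adjusted p = 0.0822). With libraries scaled by size alone the direction turned, to a rise of 0.10 that was not called. The value over all 48 livers was -0.29 (adjusted p = 0.0490). In the knockout the medians were 82.1, 82.4 and 85.3 CPM, and the log2 change in KO:HOM was 0.02 (adjusted p = 0.940). An antisense non-coding gene overlaps Nfe2l2, and another overlaps Gclm; the counts used here were those of the gene's own strand.

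In KO:HOM the test called 6 of the 10 genes, all higher (Cbr3, Nqo1, Srxn1, Hmox1, Slc7a11 and Gpx2), against 19.4% of all genes in either direction and 11.5% higher. The median of the 10 was 0.63, against -0.02 for all genes. No gene of the 10 had KO:HOM livers that all lay above KO:WT, which was so for 2.18% of all genes. Without Gpx2 and Slc7a11, 4 of 8 were called and the median was 0.37. The fit over all 48 livers called 3, Nqo1, Slc7a11 and Gpx2, against 12.9% of all genes. KO:WT and KO:HOM held 8 livers each, with neither of the discordant libraries, which enter this comparison through the shared estimate of spread.

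Whether 1 altered allele moved these genes was asked in the heterozygotes. In DN:HET against DN:WT 1 of 10 was called, Cbr3, with a log2 change of 2.11 (SE 0.56, adjusted p = 0.0310), against 2.3% of all genes. Slc7a11 stood at 3.27 (SE 0.94, adjusted p = 0.0501), with 130 reads in DN:HET against 10 in DN:WT, and Hmox1 at 0.61 (adjusted p = 0.299). These values rested on few livers. DN:HET animals 4 and 22 held 4.38 and 11.5 CPM of Cbr3, 4.01 and 2.99 of Slc7a11 and 44.3 and 48.8 of Hmox1, and their macrophage sums were 1508 and 1514 CPM against a group median of 373. The same livers held the highest cholangiocyte sums of DN:HET (190.3 and 237 CPM, median 73.1), the highest neutrophil sums (31.4 and 44.6, median 9.36), the highest Kupffer cell sums (553 and 599, median 231) and the highest lymphocyte sums (18.9 and 20.97, median 6.87), with the lowest hepatocyte sums (45226 and 43970, median 62150). The part of these cell types was not tested. Without both animals Cbr3 stood at 1.23 with an adjusted p of 1, and without either it was not called (0.104 without animal 4 and 0.276 without animal 22). Leaving out any one of DN:WT animals 2, 5, 7, 13, 21 and 28 also ended that call, with an adjusted p of 0.0559 to 0.0787. In the fit over all 48 livers no gene of the 10 was called, against 0.25% of all genes, and Cbr3 stood at -0.19. In KO:HET against KO:WT edgeR called 0 of 10, against 0.0191% of all genes, and DESeq2 called 0 as well. None of the 10 had an unadjusted p under 0.05, and the lowest was 0.143.

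Homozygous livers were also set against heterozygous ones, which share the homozygous samples with the comparisons above. In DN:HOM against DN:HET 7 of 10 were called, all higher, against 53.9% of all genes. Without Gpx2 and Slc7a11, which passed the filter through the homozygous livers, it was 5 of 8, near the share of all genes. The 7 were Cbr3 (log2 change 3.35), Gpx2 (3.92), Slc7a11 (3.07), Srxn1 (1.29), Nqo1 (0.89), Txnrd1 (0.51) and Gclc (0.35, adjusted p = 0.0398). Hmox1 stood at 0.60 with an adjusted p of 0.0519, and passed without any one of several livers, with an adjusted p as low as 0.00944 without DN:HET animal 22. Gclc was lost without any one of several livers, with an adjusted p of up to 0.115, and was not called over all 48 livers, where 6 of the 10 were, against 46.4% of all genes. In KO:HOM against KO:HET 3 of 10 were called, Cbr3 at 1.57, Hmox1 at 0.92 and Slc7a11 at 3.45, against 10.6% of all genes, and without Gpx2 and Slc7a11 the calls were 2 of 8. Leaving out 1 liver gave 1 call without KO:HET animal 2, KO:HOM animal 8 or KO:HOM animal 11, and 5 without KO:HET animal 4, KO:HET animal 9 or KO:HOM animal 30. Slc7a11 was the 1 gene called when all 48 livers were fitted, against 4.72% of all genes.

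The homozygous effect was larger in the knock-in than in the knockout for 3 of the 10 genes by the test of the difference itself, no larger a share than the 34.7% of all genes. The difference was 3.29 for Cbr3 (SE 0.77, adjusted p = 0.000821), 0.9998 for Srxn1 (SE 0.28, adjusted p = 0.00394) and 0.53 for Txnrd1 (SE 0.12, adjusted p = 0.000331) on the log2 scale. For Nqo1 it was 0.57 (SE 0.29, adjusted p = 0.130), for Hmox1 0.43 (SE 0.38) and for Gclc 0.29 (SE 0.21), none of them called. Slc7a11 at 1.88 (SE 1.5) and Gpx2 at 1.43 (SE 2.25) were too sparse in the wild-type livers for their difference to be sized. Nfe2l2 stood at -0.35 (SE 0.18, adjusted p = 0.117). Over all 48 livers Txnrd1 alone was called among the 10, at 0.41, near the 10.5% of all genes called, with Cbr3 at 0.79 (adjusted p = 0.655) and Srxn1 at 0.63 (adjusted p = 0.196).

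**Figure D2:**
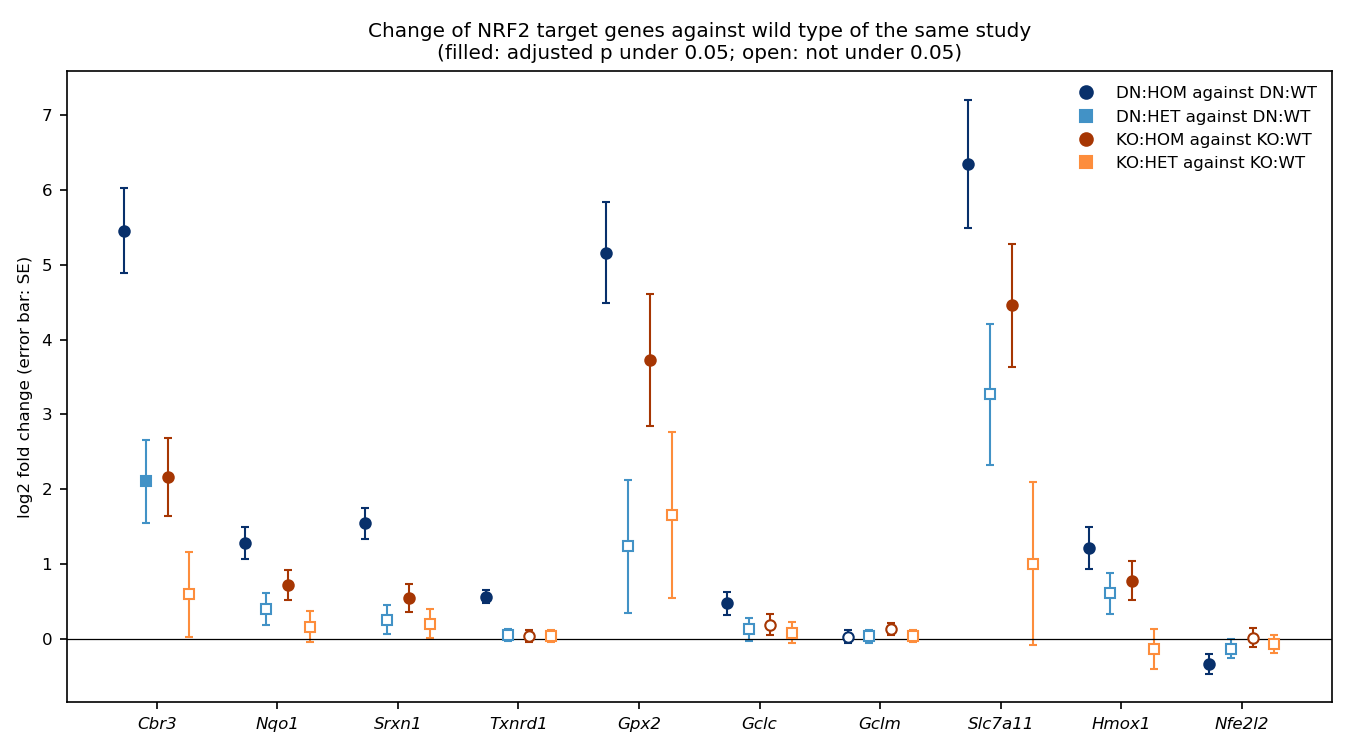
The log2 fold change of each gene against the wild-type livers of the same experiment is plotted for homozygotes (circles) and heterozygotes (squares) of the knock-in (blue) and the knockout (orange), from the fit over 46 livers, with bars of 1 SE and filled marks where the adjusted p was under 0.05. Cbr3 reaches 5.45 in DN:HOM and 2.16 in KO:HOM, Txnrd1 0.56 and 0.04, and Nfe2l2 lies at -0.34 in DN:HOM.

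The wild-type livers of both experiments, which differ in site and line but not in labelled genotype, differed in 3 of the 10 genes, against 12% of all genes. DN:WT was higher by 0.81 in Gclc (adjusted p = 0.000159), where the groups did not overlap, by 0.76 in Srxn1 (adjusted p = 0.00660) and by 0.72 in Nfe2l2 (adjusted p = 8.17e-05). Over all 48 livers 6 of the 10 were called, against 12.7% of all genes. For Gclc and Nfe2l2 these values exceed the homozygous changes within either experiment, a difference that was not tested.

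Levels of different genes compare only per length, given here as CPM per kilobase of the canonical transcript. In DN:WT the mean was 138 for Gclc, then 49.1 for Txnrd1, 39.6 for Gclm (SD 3.08, n = 7) and 38.7 for Nfe2l2 (SD 7.88), then 10.9 for Srxn1 and 10.7 for Hmox1 (SD 2.22 each). Gclm and Nfe2l2, and likewise Srxn1 and Hmox1, did not differ beyond their spread. Nqo1 followed at 3.55, Cbr3 at 0.504, Gpx2 at 0.0473 and Slc7a11 at 0.0105. In DN:HOM Gclc was again first at 190, and Cbr3, at 22.2, lay near Hmox1 at 24.6 and above Nqo1 at 8.59. Gpx2 at 1.93 and Slc7a11 at 0.933 were still the lowest per length. Per length, KO:WT gave 78.1 for Gclc, 41.7 for Txnrd1, 39.6 for Gclm and 23.4 for Nfe2l2. Over the union of exons in place of the canonical transcript, Txnrd1 moved behind Gclm and Nfe2l2 in DN:WT.

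Other known NRF2 targets moved in both directions. Of 22 such genes, 12 were higher and 3 lower in DN:HOM, and 10 were higher and none lower in KO:HOM, with medians of 0.45 and 0.39 on the log2 scale. These 15 of 22 calls in DN:HOM lie near the 59.1% of all genes, and the 10 in KO:HOM stand beside 19.4%. By direction, 29.1% of all genes were higher and 30% lower in DN:HOM, and 11.5% and 7.87% in KO:HOM. These shares by direction also stand beside the lists that follow. Among the glutathione transferases, which join glutathione to electrophiles, Gsta1 rose by 3.20 in DN:HOM and 2.70 in KO:HOM, Gsta2 by 1.64 and 1.56, and Gstm3 by 2.79 and 2.16. Gstp1 rose by 1.04 in DN:HOM and stood at 0.04 in KO:HOM, and Gsta3 fell by 1.38 in DN:HOM. The export pump Abcc4 rose by 2.56 in DN:HOM, while Abcc3 fell by 0.28 there and rose by 0.68 in KO:HOM. Reads that map equally to near-identical transferase genes were counted for none of them, so single values of that family are uncertain.

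Of 13 tested genes that control NRF2 or share its DNA site, 3 rose and 6 fell in DN:HOM, 9 calls beside 59.1% of all genes, and none was called in KO:HOM. The small MAF partners parted, with Maff at 1.28 and Mafk at 0.40 higher and Mafg at -0.25 lower. Sqstm1, the autophagy adaptor p62 that can hold KEAP1, rose by 0.48. Keap1 fell by 0.18, the ligase scaffold Cul3 by 0.23, the kinase Gsk3b by 0.25, the relative Nfe2l1 by 0.42 and the repressor Bach2 by 0.89. The list's median was -0.10 in DN:HOM and -0.01 in KO:HOM.

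Genes of glutathione handling outside the 10 gave 5 higher and 3 lower of 10 tested in DN:HOM, again beside 59.1% of all genes called, among them glutathione synthetase Gss (0.81), glutathione reductase Gsr (0.56) and Slc3a2 (0.62), the heavy chain that pairs with Slc7a11 protein. Slc3a2 also rose by 0.37 in KO:HOM. Of 6 genes that serve the supply of NADPH, 1 rose and 4 fell in DN:HOM and 1 rose and 2 fell in KO:HOM, beside 59.1% and 19.4% of all genes called, with medians of -0.47 and -0.12. Malic enzyme Me1, a source of NADPH for fatty acid synthesis, fell in both (-2.60 and -1.27), and so did Idh1 (-0.82 and -0.33). Of the pentose phosphate pathway Tkt and Taldo1 fell in DN:HOM (-0.52 and -0.41), and G6pdx was the gene that rose in both (1.18 and 0.94), though over all 48 livers it was called in neither (adjusted p = 0.0637 and 0.0686). Of 13 other antioxidant enzymes 8 fell and 1 rose in DN:HOM, beside the same 59.1%. Sod1 fell by 0.93, catalase by 0.93 and Prdx6 by 0.97, and Prdx4 of the endoplasmic reticulum rose by 0.50 and fell by 0.26 in KO:HOM. Their median was -0.46 in DN:HOM, against 0.89 for the 8 genes other than Gpx2 and Slc7a11. Slc7a11 is also a target of ATF4, the transcription factor of amino acid shortage, and of 9 ATF4 targets 5 rose and 1 fell in DN:HOM, beside that same share. Asns rose by 2.54, Psat1 by 1.73 and Phgdh by 4.08, and the list's median was 0.64 in DN:HOM and 0.14 in KO:HOM. Over all 48 livers the calls in DN:HOM were 12 of 22 other targets, 6 of 13 control genes, 7 of 10 glutathione genes, 4 of 6 NADPH genes, 8 of 13 antioxidant enzymes and 5 of 9 ATF4 targets, beside 48% of all genes. In the heterozygotes of both experiments no gene of these 6 lists was called by edgeR.

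**Figure D3:**
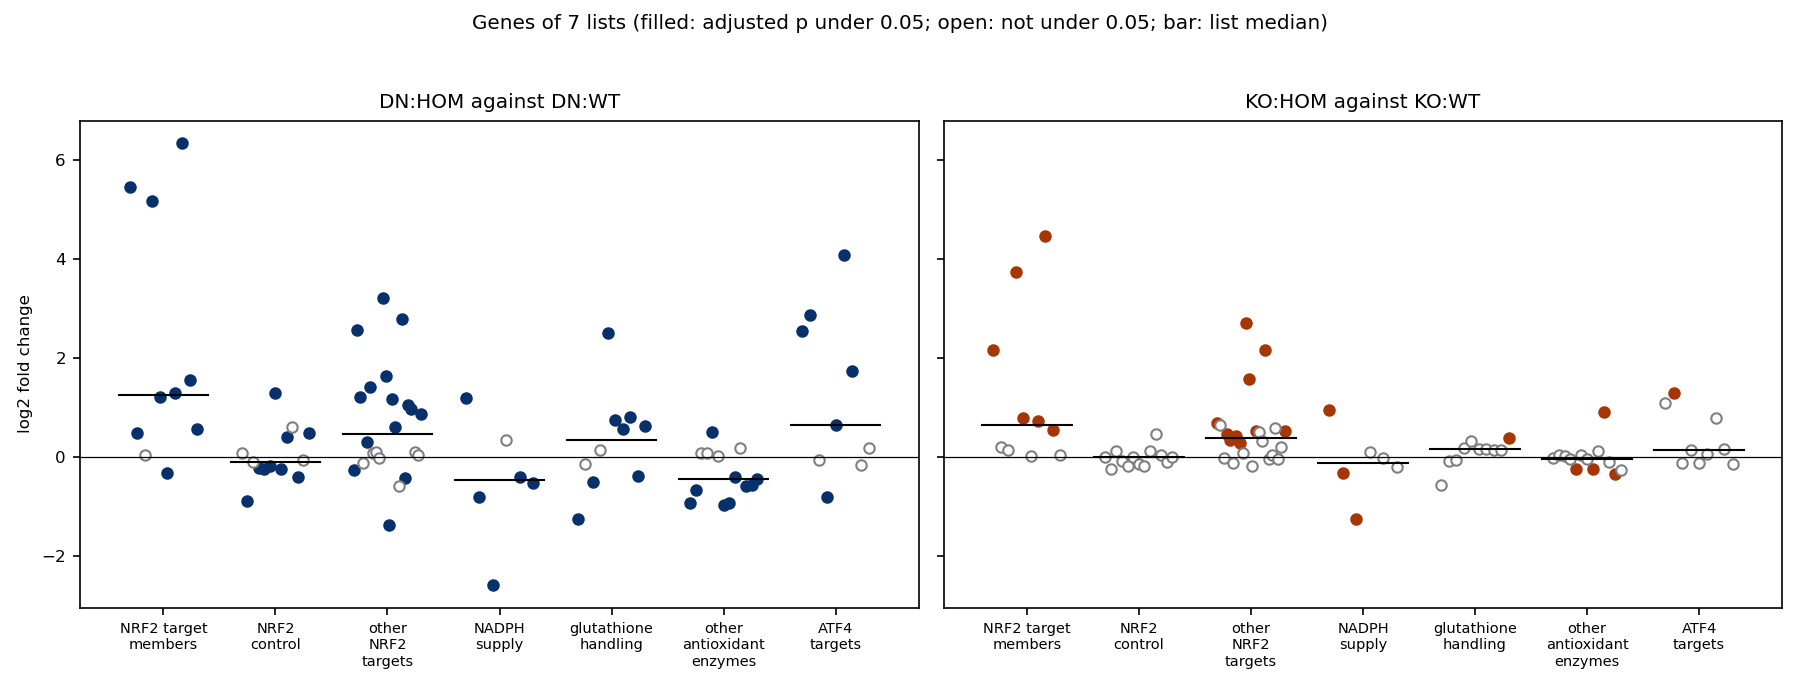
Genes of 7 lists are plotted by their log2 fold change, DN:HOM against DN:WT on the left and KO:HOM against KO:WT on the right; each point is 1 gene, filled where the adjusted p was under 0.05, and the bar is the list's median. The 10 genes have a median of 1.25 on the left, and the other antioxidant enzymes one of -0.46.

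In whole liver, fewer cells of a type and less RNA per cell cannot be told apart, and the cell mixture moved with genotype. The counts of markers below stand beside 29.1% of all genes higher and 30% lower in DN:HOM, and 11.5% higher and 7.87% lower in KO:HOM. Macrophage markers (Adgre1, Cd68, Csf1r, Lyz2, Mpeg1, Trem2, Gpnmb, Itgax and Ctss) were higher in 9 of 9 genes in DN:HOM and 8 of 9 in KO:HOM. Their sum ranged from 202 to 370 CPM in DN:WT, 197 to 1514 in DN:HET, 1390 to 2235 in DN:HOM, 136 to 339 in KO:WT, 140 to 521 in KO:HET and 427 to 1656 in KO:HOM. Kupffer cell markers fell in 5 of 5 genes in DN:HOM and 3 of 5 in KO:HOM. Cholangiocyte markers rose in 7 of 7 in DN:HOM, from 43.6 to 81.2 CPM in DN:WT to 748 to 1091 in DN:HOM, and in 1 of 7 in KO:HOM. Hepatocyte markers fell in 7 of 8 in both, from 60562 to 77271 CPM in DN:WT to 30620 to 39428 in DN:HOM. Neutrophil markers rose in 4 of 4 tested genes in DN:HOM, with sums of 3.34 to 6.54 CPM in DN:WT and 29.5 to 80.4 in DN:HOM. Ly6g, a defining neutrophil marker, was at 0 in DN:WT, DN:HET, KO:WT and KO:HET. Stellate cell markers rose in 6 of 7 in DN:HOM and 3 of 7 in KO:HOM. Lymphocyte markers rose in 3 of 6 and 4 of 6, erythroid markers fell in 2 and 1 of 5 tested, and of 6 endothelial markers 1 rose and 4 fell in DN:HOM. Over all 48 livers the calls in DN:HOM were 7 of 9 for macrophages, 6 of 7 for cholangiocytes and 0 of 6 for lymphocytes, and in KO:HOM 3 of 8 for hepatocytes, 0 of 7 for cholangiocytes and 1 of 7 for stellate cells. The part of these cell types in the values of the 10 genes was not tested.

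Livers of 1 genotype also differed among themselves. After each group's mean was subtracted from log2 CPM, 37 of the 45 pairs of the 10 genes were positively related over the 46 livers, with a median Pearson r of 0.30 and a range of -0.42 to 0.74. These are descriptions of livers that share a library and its depth. Nqo1 with Srxn1 was the closest pair by r and rho (r = 0.74, Spearman's rho = 0.72, and r = 0.69 without the 2 farthest livers). Next by r were Cbr3 with Nqo1 (0.70, 0.64 and 0.70), Srxn1 with Txnrd1 (0.70, 0.62 and 0.61) and Cbr3 with Srxn1 (0.69, 0.68 and 0.75). The last of these was the closest pair without the 2 farthest livers. By r Hmox1 was closest to Slc7a11 (0.67, 0.62 and 0.62), but to Cbr3 by the other 2 measures (0.63, 0.68 and 0.66). Gclm went against Hmox1 (-0.42, -0.47 and -0.35). Among 13240 other genes with a mean of at least 1 CPM, those most like Nqo1 over the 46 livers were Gsta13 (r = 0.81), Aldh1a7 (0.79), Gstm3 (0.79), Rtn4 (0.79) and Lgals1 (0.78).

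The 10 genes related to the summed macrophage markers in different degrees by the same group-centred measure. Hmox1 gave r = 0.80 (rho 0.82, and 0.76 without the 2 farthest livers), Slc7a11 0.76 (0.72 and 0.66) and Gpx2 0.71 (0.61 and 0.64). Cbr3 gave 0.46 (0.51 and 0.37), Srxn1 0.27, Txnrd1 0.22 and Nqo1 0.21 (0.26 and 0.20), whereas Gclc was at -0.14 and Gclm at -0.46. Some of the genes related more closely to another cell type, while Gpx2 was closest to the macrophage sum among the 9 lists. Cbr3 gave 0.77 with the stellate cell sum (rho 0.72, and 0.69 without the 2 farthest livers) and 0.69 with the cholangiocyte sum, and Srxn1 gave 0.62 with the latter. With the neutrophil sum Hmox1 gave 0.81 and Slc7a11 0.80.

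**Figure D4:**
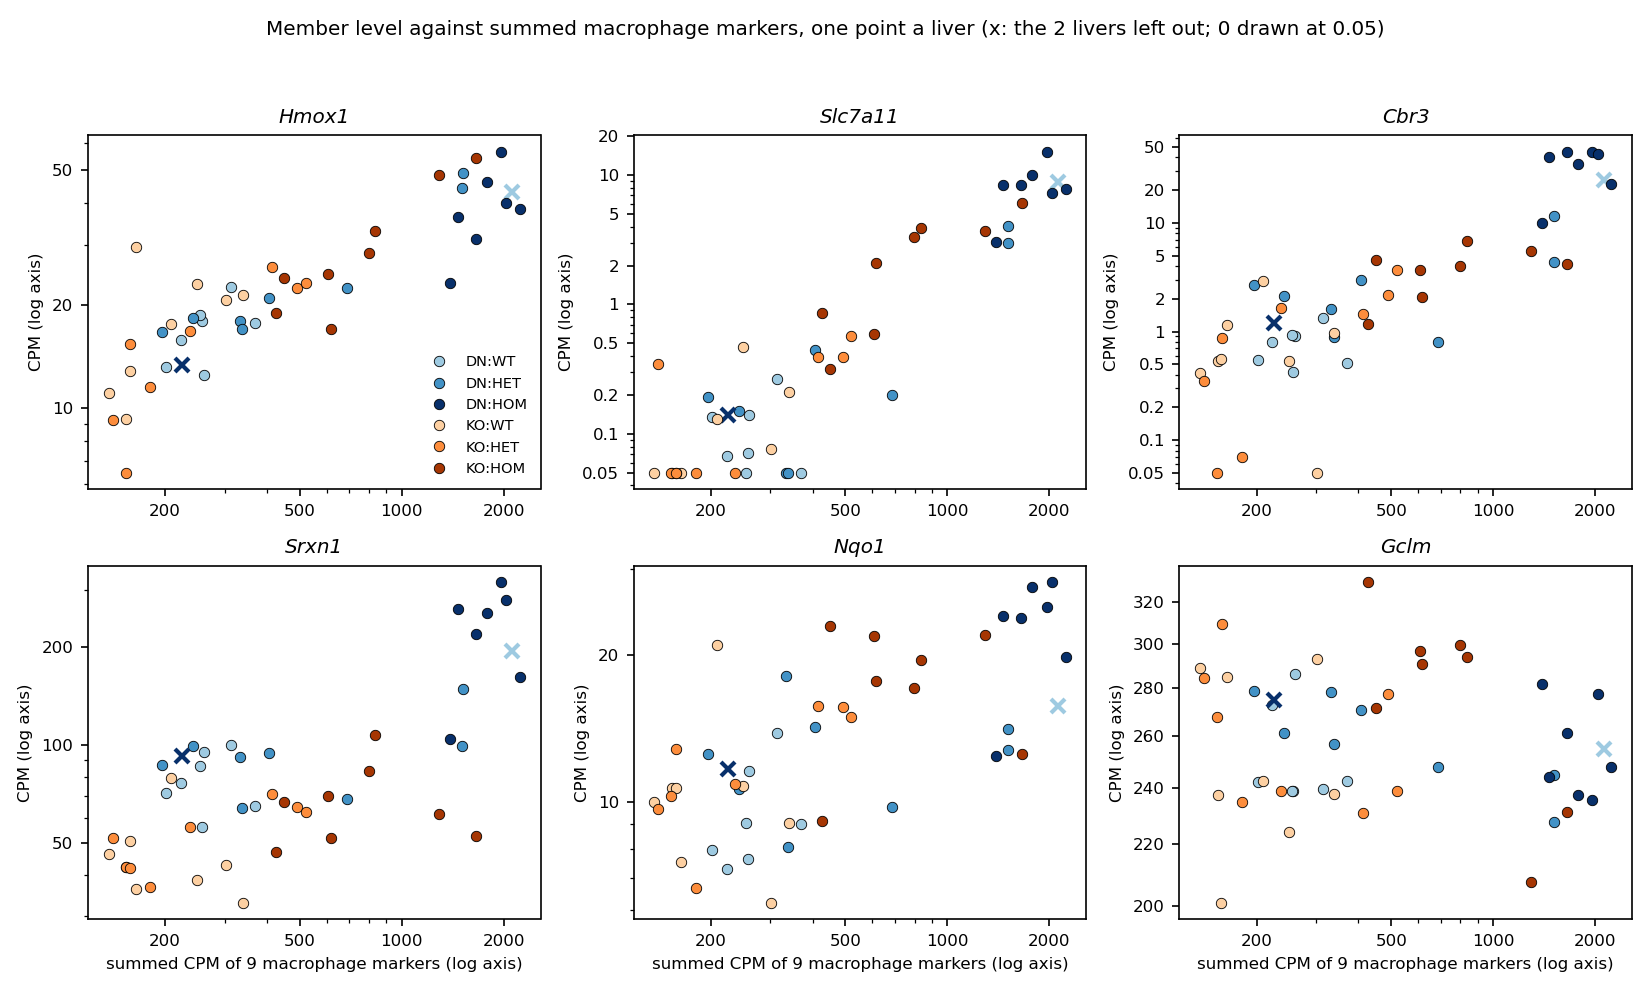
For 6 of the genes, CPM is plotted against the summed CPM of 9 macrophage markers, both on log axes; each point is 1 liver coloured by group, crosses are the 2 libraries left out, and values of 0 are drawn at 0.05. Hmox1 and Slc7a11 are high in the livers with high macrophage sums in both experiments, DN:HET animals 4 and 22 included, whereas Gclm lies between 201 and 330.1 CPM across the whole axis.

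Single livers carried many of the extremes. DN:HOM animal 33 was the lowest of its group in 8 of the 10 genes, with 9.96 CPM of Cbr3, 12.4 of Nqo1 and 104.2 of Srxn1, and was the highest in Gclm at 282. It also held the lowest sums of DN:HOM for macrophages (1390 CPM), cholangiocytes (748), stellate cells (472), neutrophils (29.5) and lymphocytes (3.30). Its hepatocyte sum (39428 CPM) and Kupffer cell sum (3.50) were the highest of that group. The part of these cells in its values was not tested. DN:HET animal 22 was the highest of its group in Cbr3, Srxn1, Txnrd1, Hmox1 and Gpx2. KO:WT animal 23 was the highest of its group in Cbr3 (2.93 CPM), Nqo1 (20.97), Srxn1 (79.3), Gclc (359.9) and Nfe2l2 (112), and its macrophage sum, 209 CPM, lay within the range of KO:WT. Its cholangiocyte sum of 116 CPM and its stellate cell sum of 226 CPM were the highest of KO:WT, where the next were 58.7 and 131 CPM.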

How the data were processed

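PolyA-selected, stranded RNA libraries of 48 livers, 8 per group, were aligned by the authors with STAR 2.5.0a to GRCm39, per the labels and the study's methods, and the authors deposited raw read counts per gene for both strand readings; the counts on the gene's strand were used here, as 24.0% to 35.0% of each library's reads named no gene and were left out. Symbols came from GENCODE, which held 54749 of the 55416 identifiers (98.8%). The members and lists were chosen with earlier results of these data known. The named genes are the 10 members, Nr1h3, genes of the pathway lists, overlapping genes or paralogues, and the 5 genes most like Nqo1. DN:WT animal 10 and DN:HOM animal 12 were left out of the main results, because they went against their labels and are absent from the study's own per-liver source data, in which the other 22 knock-in livers were found.

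Counts were filtered with filterByExpr, scaled by TMM and fitted as 6 group means with edgeR 4.0.16 in R 4.3.3, using the quasi-likelihood F test with Benjamini-Hochberg adjustment over 15711 genes (15621 with all 48 livers) at 0.05. The fit was tested on simulated data. CPM were scaled by TMM over all 48 livers. SE is the log2 change divided by the square root of F. Depth had a median of 15879971.5 reads, and intervals cover counting error only. Each liver is 1 mouse. Alternatives were all 48 livers, DESeq2 1.42.0, other scalings, unstranded counts, no filter, fewer groups in the fit, a threshold of 0.01 and each liver left out.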

Additional observations from a re-analysis of the deposited data

Results flagged for a closer look

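In 80 sets of 7 or 8 livers (10 genes in 6 groups, and again in DN:WT and DN:HOM with all their livers), 15 values stood further from the rest of their group than Dixon's 95% critical value allows. Chance flags about 1 in 20 groups where values are normally distributed, a rate that does not hold for CPM values near 0. The values of the library labelled DN:WT animal 10, set against the other DN:WT livers, were 24.5 CPM for Cbr3, 195 for Srxn1, 215 for Txnrd1, 42.9 for Hmox1, 8.81 for Slc7a11 and 1.67 for Gpx2. DN:HET animal 22 stood apart with 11.5 CPM of Cbr3, 149 of Srxn1 and 0.644 of Gpx2. KO:WT animal 23 stood apart with 2.93 CPM of Cbr3, 20.97 of Nqo1, 79.3 of Srxn1 and 112 of Nfe2l2. KO:WT animal 5 held 0.471 CPM of Slc7a11 and KO:WT animal 31 held 0.153 CPM of Gpx2, both from few reads. The other 7 KO:WT livers had no Gpx2 read, so that any count in animal 31 would have stood apart, and the Gpx2 value carries no weight.

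The homozygous effect differed between the knock-in and the knockout by the test of the difference over 46 livers for Cbr3 (3.29 on the log2 scale), Srxn1 (0.9998) and Txnrd1 (0.53). Site and experiment cannot be told apart in these differences.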

How the results depend on the processing

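Of 816 recomputed log2 changes of single genes, 765 kept their direction and their side of the threshold. A threshold of 0.01 left 8 of 9 calls in DN:HOM against DN:WT and 4 of 6 in KO:HOM against KO:WT, and library size alone added Gclm in KO:HOM (0.25). Numbers of calls that moved by over 1.5 times were these. With all 48 livers the counts were 3 in KO:HOM against KO:WT, 0 in DN:HET against DN:WT, 1 in KO:HOM against KO:HET, 1 for the knock-in minus the knockout and 6 in DN:WT against KO:WT. In that order, 12.9%, 0.25%, 4.72%, 10.5% and 12.7% of all genes were called with all 48. For DN:HET against DN:WT, DESeq2, upper-quartile scaling, library size alone and unstranded counts each gave 2, the compared groups alone, a threshold of 0.01 and leaving out DN:HET animals 4 and 22 (chosen after seeing the data) each gave 0, and leaving out 1 liver gave 0 to 2. For KO:HOM against KO:HET, library size alone gave 5, each experiment fitted alone, the compared groups alone and a threshold of 0.01 each gave 1, and leaving out 1 liver gave 1 to 5. Library size alone gave 5 for the knock-in minus the knockout. Stricter letters left 0 genes with the motif. Direction turned for Nfe2l2 in DN:HOM (0.10) and Gclm in the knock-in minus the knockout (0.21) under library size alone; for Cbr3 (-0.19), Slc7a11 (-0.31) and Gpx2 (-1.09) in DN:HET with all 48 livers; for Gpx2 in DN:HET without animals 4 and 22 (-0.91); and for the knock-in minus the knockout of Slc7a11 (-1.88) and Gpx2 (-1.07) with all 48 livers. Leaving out 1 liver also turned the direction of changes that had not been called: it gave -0.00801 to 0.0502 for Gclm in DN:HOM, -0.00011 to 0.0642 for Txnrd1 and -0.0128 to 0.0867 for Nfe2l2 in KO:HOM, -0.127 to 0.00364 for Nfe2l2 in KO:HET, -0.0536 to 1.67 for Gpx2 in DN:HET (lowest without animal 22) and -0.232 to 1.85 for Gpx2 in the knock-in minus the knockout (lowest without KO:WT animal 31). Causes were not tested, beyond the shift that scaling by library size gives all genes. No paired analysis was possible because the groups compared within an experiment share no animal numbers and DN:WT and KO:WT share only 1. Depth limits Slc7a11 and Gpx2, whose wild-type levels rest on 2 to 13 reads per group.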
